A study of Mus musculus with 12 samples.

Results

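The mouse annotation used here holds 53 protein-coding genes named Wnt, Fgf or Bmp with a number and at most 1 further letter, among 22342 protein-coding genes on chromosomes 1 to 19 and X. There were 19 Wnt, 22 Fgf and 12 Bmp genes, and all of them were kept. They were picked by symbol, with no measured value in the rule, though earlier results of these data were known when they were chosen. Genes for the receptors are outside this naming. The naming is wider than the word ligand. Bmp1 encodes a secreted protease that trims procollagen, Bmp2k encodes a kinase, and the proteins of Fgf11, Fgf12, Fgf13 and Fgf14 stay inside the cell, where they bind sodium channels.

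Wnt proteins are lipid-modified signals that bind Frizzled receptors with an LRP coreceptor and stabilise beta-catenin, or act through other Frizzled branches. Most FGFs act on neighbouring cells through tyrosine kinase receptors together with heparan sulphate, while Fgf15, Fgf21 and Fgf23 circulate as hormones. BMPs bind serine and threonine kinase receptors and act through SMAD proteins. In muscle, Wnt signals take part in commitment and regeneration, FGF signals hold myoblasts in the cell cycle, and BMP signals oppose myogenic differentiation.

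ChIP-seq, in which DNA bound to a modified histone is precipitated and sequenced, was done for 6 histone marks in C2C12, a myoblast line from C3H mice that fuses into myotubes when serum is removed. Myoblasts were taken close to confluence in 10% serum. Myotubes were taken about 5 days after serum withdrawal and were freed of cells that had not fused by a mild trypsin treatment. Both came from passages 15 to 18 with no genetic change or added agent named in the labels, and 1 library was made for each mark in each cell type, 12 in all, with no replicate and no input library used here. Each difference described therefore sets 1 library against 1 library, no p-value was computed, and the intervals cover counting error alone. These are bulk measurements, in which fewer cells with a mark and less of it per cell cannot be told apart.

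H3K4me3 and H3K27ac lie at active promoters, H3K4me2 and H3K4me1 spread to their flanks and to enhancers, H3K27me3 is laid down by Polycomb complexes at silent developmental genes, and H3K36me3 covers the bodies of transcribed genes. Reads were counted from 2 kb before to 2 kb after 1 transcription start site (TSS) per gene, the one with the most H3K4me3. Libraries held 1858771 to 7033100 reads, so that a window with no enrichment would hold 2.91 to 11.0 reads. Fold is the count over that genome mean, and a promoter was called enriched at 3-fold or more. A window with 0 reads allows up to 3, which is 0.273-fold to 1.03-fold depending on the library. The labels were checked on 10 muscle genes. H3K4me3 was at least 2-fold higher in myotubes at 6 of them and H3K27ac at 7, and the H3K4me3 count at Acta1, the skeletal actin, went from 6 to 329 reads. H3K4me3 was enriched at 0 of 4 epithelial markers in both cell types, at 1 and 0 of 4 endothelial markers in myoblasts and myotubes, at 1 of 4 blood markers (Cd68) and at 2 of 5 neuronal markers (Tubb3 and Stmn2). H3K27ac was higher in myotubes at 2 of the 4 blood markers, Cd68 (37 and 182 reads) and Sfpi1, and their part in the results below was not tested. The deposited peak lists of the myoblast H3K27ac and H3K27me3 samples stand exchanged against their reads, since the list given with H3K27me3 holds 36.4-fold H3K27ac and 0.804-fold H3K27me3 reads, so the results rest on reads alone.

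Promoter sequence is shown for 6 members, from 250 bases before the TSS through the first 50 bases transcribed, in mm9 and 5′ to 3′ on the strand of the gene. The first 5 are the members whose H3K27ac was at least 2-fold higher in myotubes, and in them capitals mark CAGCTG, an E-box that myogenic bHLH factors can bind. The last is Wnt3, which had the highest H3K27me3 of the 53 in myoblasts, and there capitals mark GCTCG, the core of the sequence bound by ZBED6, the factor the study is about.
Wnt10a, chr1:74837840-74838139, plus strand: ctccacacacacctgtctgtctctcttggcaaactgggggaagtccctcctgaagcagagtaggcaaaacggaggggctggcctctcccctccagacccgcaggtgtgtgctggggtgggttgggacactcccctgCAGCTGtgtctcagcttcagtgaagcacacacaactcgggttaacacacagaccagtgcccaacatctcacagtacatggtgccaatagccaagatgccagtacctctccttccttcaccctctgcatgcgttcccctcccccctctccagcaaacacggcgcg
Fgf21, chr7:52870811-52871110, minus strand: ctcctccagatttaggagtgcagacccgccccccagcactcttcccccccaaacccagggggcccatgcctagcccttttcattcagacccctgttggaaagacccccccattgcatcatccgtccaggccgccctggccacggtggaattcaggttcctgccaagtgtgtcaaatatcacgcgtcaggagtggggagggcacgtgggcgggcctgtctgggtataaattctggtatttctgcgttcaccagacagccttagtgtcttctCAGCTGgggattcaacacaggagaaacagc
Fgf11, chr11:69615310-69615609, minus strand: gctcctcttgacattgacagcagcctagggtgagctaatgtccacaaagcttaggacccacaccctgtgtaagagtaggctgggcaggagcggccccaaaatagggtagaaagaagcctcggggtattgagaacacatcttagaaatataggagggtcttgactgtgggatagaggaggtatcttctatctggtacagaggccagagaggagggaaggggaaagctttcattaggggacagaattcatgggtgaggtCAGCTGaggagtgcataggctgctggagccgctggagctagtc
Wnt9a, chr11:59120180-59120479, plus strand: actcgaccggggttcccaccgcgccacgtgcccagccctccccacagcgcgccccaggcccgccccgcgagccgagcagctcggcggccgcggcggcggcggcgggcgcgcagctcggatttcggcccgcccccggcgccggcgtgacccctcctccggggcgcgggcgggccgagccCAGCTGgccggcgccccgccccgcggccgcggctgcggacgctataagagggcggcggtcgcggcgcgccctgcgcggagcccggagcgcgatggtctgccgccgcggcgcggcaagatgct
Bmp2k, chr5:97426458-97426757, plus strand: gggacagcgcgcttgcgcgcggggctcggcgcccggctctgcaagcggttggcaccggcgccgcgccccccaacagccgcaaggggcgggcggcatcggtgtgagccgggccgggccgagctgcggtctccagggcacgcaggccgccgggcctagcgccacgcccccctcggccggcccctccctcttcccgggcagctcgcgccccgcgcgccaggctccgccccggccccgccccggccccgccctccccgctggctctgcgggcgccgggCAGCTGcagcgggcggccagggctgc
Wnt3, chr11:103635214-103635513, plus strand: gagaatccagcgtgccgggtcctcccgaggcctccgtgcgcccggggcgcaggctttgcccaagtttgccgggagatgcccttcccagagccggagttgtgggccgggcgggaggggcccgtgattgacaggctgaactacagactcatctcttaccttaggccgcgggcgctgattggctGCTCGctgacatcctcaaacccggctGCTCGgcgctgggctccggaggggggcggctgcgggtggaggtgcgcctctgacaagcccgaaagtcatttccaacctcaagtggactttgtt

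These promoters differed in base composition. The sequences of Wnt9a and Bmp2k hold 58 and 45 CpG dinucleotides, and that of Wnt3 holds 24, while those of Fgf21, Wnt10a and Fgf11 hold 9, 7 and 3, against a median of 13 over all promoters. The E-box begins 114 bases before the TSS of Wnt10a and 72 before that of Wnt9a. In Fgf11, Fgf21 and Bmp2k it begins 7, 20 and 24 bases after the TSS.

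Few of these genes carried the marks of an active promoter. In myoblasts 14 of the 53 members were enriched for H3K4me3, where the share over all protein-coding promoters was 50.4%, and in myotubes 15 were, against 50.6%. H3K27ac was enriched at 10 members in each cell type, against 49.1% and 43.1% of all promoters. H3K27me3 showed the opposite lean, with 24 members in myoblasts against 10.1% of all promoters and 12 members in myotubes against 7.03%. The median member had 2.28-fold H3K27me3 in myoblasts, and the median promoter 0.820-fold.

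H3K4me2 was enriched at 30 members in myoblasts (58.2% of all promoters) and 23 in myotubes (55.0%). For H3K4me1 the numbers were 24 (34.7%) and 16 (31.6%). H3K36me3, which is sparse at start sites, was enriched there at 2 members in myoblasts (9.30%) and 1 in myotubes (7.77%).

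**Figure D1:**
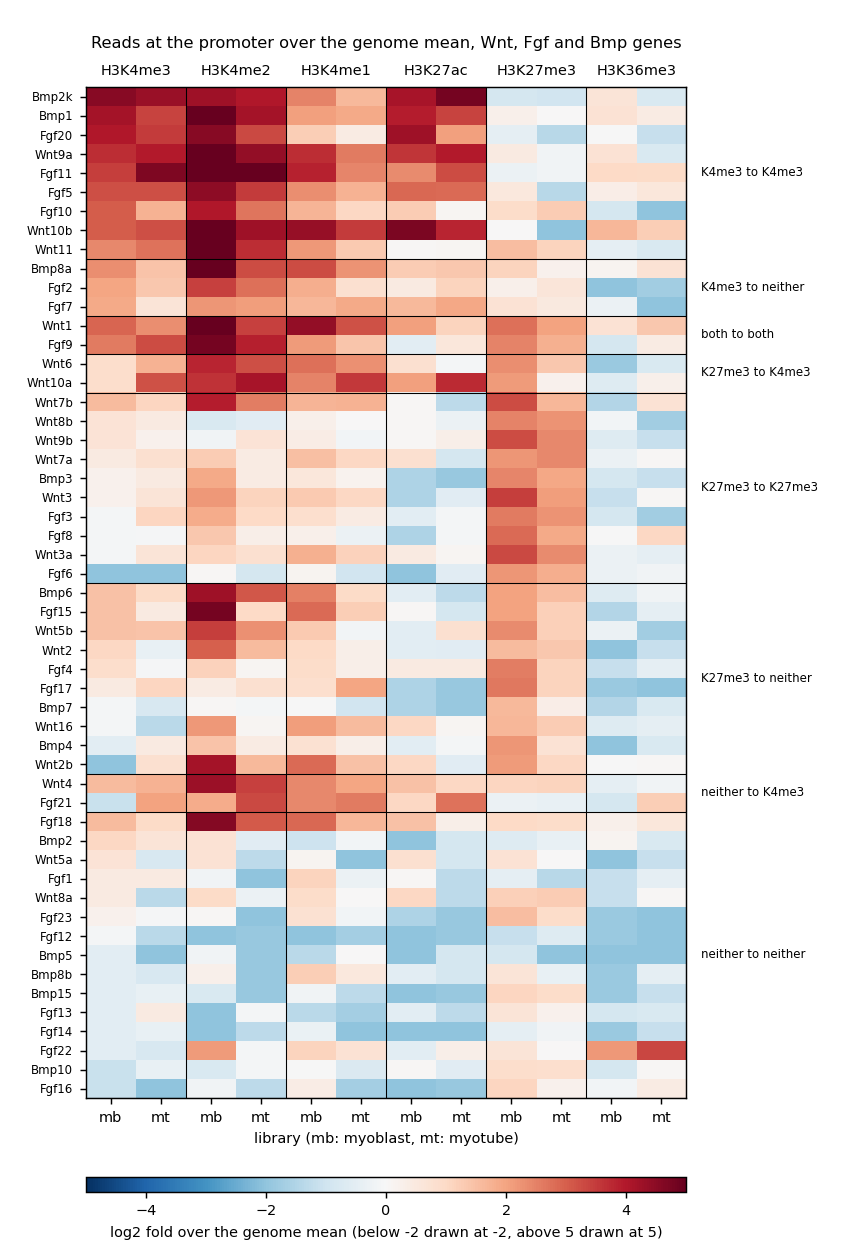
Reads within 2 kb of the TSS over the genome mean, on a log2 scale, for the 53 members (rows) in 12 libraries (columns; mb, myoblast; mt, myotube). Rows are grouped by the pair of classes named at the right, where K4me3 is H3K4me3 without H3K27me3, K27me3 the reverse and both means both marks. Values under a set limit are all drawn at that limit, which lies inside the colour scale. Those past its upper end are drawn at that end. The highest value of H3K4me3 and of H3K27ac in each cell type lies in the 9 uppermost rows. The 10 members with H3K27me3 without H3K4me3 in both cell types form the block in the middle.

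Each promoter was placed in 1 of 4 classes by H3K4me3 and H3K27me3 in the same window. In myoblasts 12 members had H3K4me3 without H3K27me3 (49% of all promoters), 2 had both marks (1.33%), 22 had H3K27me3 without H3K4me3 (8.79%) and 17 had neither (40.9%). In myotubes the numbers were 13 (50%), 2 (0.653%), 10 (6.37%) and 28 (43.0%). Seen by role, 12 of the 19 Wnt genes had H3K27me3 without H3K4me3 in myoblasts, as did 4 of the 10 BMP ligands, 5 of the 15 paracrine FGFs, 1 of the 3 endocrine FGFs and 0 of the 4 intracellular FGFs. H3K4me3 was enriched at 4 Wnt genes in myoblasts and 7 in myotubes. Shared windows do not show that both marks sat on the same nucleosome.

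**Figure D2:**
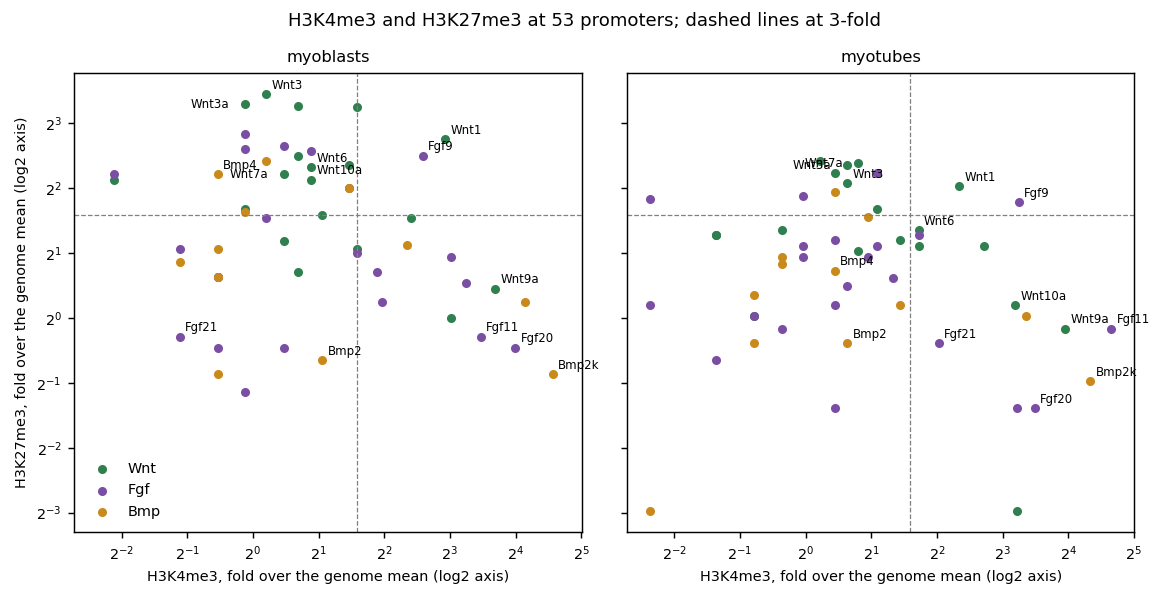
H3K4me3 (x axis) against H3K27me3 (y axis) at the 53 promoters in myoblasts (left) and myotubes (right), each as fold over the genome mean on log2 axes, with counts of 0 drawn at 1 read. Wnt10a and Wnt6 lie in the upper left field in myoblasts and in the lower right one in myotubes, while Wnt1 and Fgf9 stay in the upper right in both.

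9 members had H3K4me3 without H3K27me3 in both cell types, against 47.3% of all promoters, namely Wnt9a, Wnt10b, Wnt11, Fgf5, Fgf10, Fgf11, Fgf20, Bmp1 and Bmp2k. Of these, only Wnt9a, Wnt10b, Wnt11, Fgf5, Fgf10 and Fgf20 encode secreted signals, and among the 10 BMP ligands no promoter reached 3-fold H3K4me3 in myotubes in this window, where Bmp8a had 2.71-fold. With 1 kb either side, Bmp8a had 4.65-fold and Bmp6 3.49-fold. The 2 genes that bear the Bmp name without encoding a BMP ranked high. Bmp2k had 103 H3K4me3 reads in myoblasts (23.7-fold) and 104 in myotubes (20.2-fold), and Bmp1 had 77 (17.8-fold) and 53 (10.3-fold). In H3K4me3, Bmp2k, Bmp1 and Fgf20 led the members in myoblasts and Fgf11, Bmp2k and Wnt9a in myotubes.

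Wnt9a, a Wnt of joint and limb development, was the ligand with the most H3K4me3 in myotubes. Its promoter held 56 H3K4me3 reads in myoblasts (12.9-fold) and 80 in myotubes (15.5-fold), a difference short of 2-fold. H3K27ac stood at 35 reads (12-fold) and 116 reads (15.7-fold). In H3K27ac the median enriched promoter had a myotube to myoblast ratio of 0.604 after scaling by total reads. This shift was divided out before enriched promoters were set beside each other. With 1 library per cell type, a change in the cells cannot be told apart from a difference between the libraries. On that relative scale H3K27ac at Wnt9a was 2.12 times higher in myotubes (interval 1.47 to 3.25), and with scaling by total reads alone the ratio was 1.28 and was not called.

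The same shift applied to the other marks, with median ratios of 0.910 for H3K4me3, 0.642 for H3K4me2, 0.826 for H3K4me1, 0.754 for H3K27me3 and 0.942 for H3K36me3. All ratios below are relative to these medians, with 1 read added to each library. A promoter was compared if the 2 libraries together reached 3-fold and was called higher or lower at 2-fold. A promoter high in 1 library alone can pass this limit, which favours a call toward that library. 16 of the 53 members were called for at least 1 mark, 11 of them for 1 mark alone. The share over all promoters was not counted for this, and is given below for each mark by itself.

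Wnt10b, which keeps mesenchymal cells from becoming fat cells, had the most H3K27ac of the members in myoblasts, 76 reads or 26.1-fold. It had 103 reads (13.9-fold) in myotubes, and its relative ratio was 0.880 (0.650 to 1.2), an interval that holds 1. H3K4me3 stood at 35 and 48 reads there, and at 1.99-fold and 2.52-fold against the surrounding 100 kb on each side. Its neighbour Wnt1, which starts 11707 bp away on the other strand, is a signal of the dorsal neural tube that induces muscle precursors in the embryo. Wnt1 carried both marks, with 33 H3K4me3 reads (7.61-fold) and 74 H3K27me3 reads (6.74-fold) in myoblasts and 26 (5.04-fold) and 32 (4.08-fold) in myotubes. In this window the other member with both marks was Fgf9, a paracrine FGF, at 26 and 62 reads in myoblasts and 49 and 27 in myotubes, and 0.300% of all promoters had both marks in both cell types. This class depends on the window and the background. With 1 kb either side, Wnt2, Wnt5b, Wnt7b, Wnt11, Bmp6 and Fgf15 joined them in myoblasts, which made 8. Against the surrounding 100 kb on each side, H3K4me3 at Wnt1 was 1.72-fold and 1.21-fold and H3K27me3 at Fgf9 was 2.80-fold and 1.60-fold, so that neither kept both marks.

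Wnt11, a non-canonical Wnt of cell polarity, had H3K4me3 with no enrichment of H3K27ac in either library. H3K4me3 was at 23 and 34 reads (5.30-fold and 6.59-fold) and H3K27ac at 3 and 8 reads (1.03-fold and 1.08-fold). Fgf10, an outgrowth signal of the limb bud, was alike in this, with 7 and 8 H3K27ac reads. H3K27ac was enriched at 9 of the 14 members with H3K4me3 in myoblasts, where the share over all promoters with H3K4me3 was 92.5%, and at 9 of the 15 in myotubes, where it was 82.2%.

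2 Wnt promoters, which are neighbours, had H3K27me3 without H3K4me3 in myoblasts and the reverse in myotubes, against 0.340% of all promoters. Wnt10a, which like Wnt10b signals through beta-catenin, differed between the libraries in 5 of the 6 marks, more than any other member, and Fgf11 followed with 3. At Wnt10a, H3K4me3 was at 8 reads in myoblasts (1.84-fold) and 47 in myotubes (9.11-fold), H3K27ac at 12 (4.13-fold) and 98 (13.3-fold), and H3K27me3 at 48 (4.37-fold) and 9 (1.15-fold). The gene thus stood high in the active marks and at the genome mean in H3K27me3 in myotubes.

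The relative ratio at Wnt10a was 4.93 (2.54 to 13.3) for H3K4me3 and 4.96 (2.91 to 10.6) for H3K27ac. It was 2.19 (1.65 to 2.93) for H3K4me2, from 82 and 128 reads, and 2.50 (1.82 to 3.54) for H3K4me1, from 56 and 113 reads. H3K27me3 was lower, at 0.379 (0.150 to 0.718). The H3K27me3 call was lost with a window of 1 kb either side, with 1 read kept per position and strand and with libraries thinned to equal size, and the H3K4me2 call with the first and last of these and with scaling by total reads alone. Against the surrounding 100 kb on each side, in place of the genome mean, its H3K27me3 in myoblasts was 1.36-fold and its H3K4me3 in myotubes 2.79-fold, both under 3-fold, while its H3K27ac was 3.61-fold and 4.74-fold.

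Wnt6, an ectodermal Wnt that starts 19624 bp before Wnt10a on the same strand, lay nearer the thresholds. It had 8 H3K4me3 reads in myoblasts (1.84-fold) and 17 in myotubes (3.30-fold), too few for the ratio to be compared. Its H3K27me3 stood at 55 reads (5.01-fold) and 20 reads (2.55-fold), with a relative ratio of 0.696 (0.383 to 1.14). H3K27ac was at 5 and 7 reads there, under the genome mean in myotubes, so that only Wnt10a of the pair was enriched for H3K27ac. Against the surrounding 100 kb on each side, H3K27me3 at Wnt6 was 1.85-fold in myoblasts and H3K4me3 0.973-fold in myotubes, so that on this scale neither gene passed from one class to the other.

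**Figure D3:**
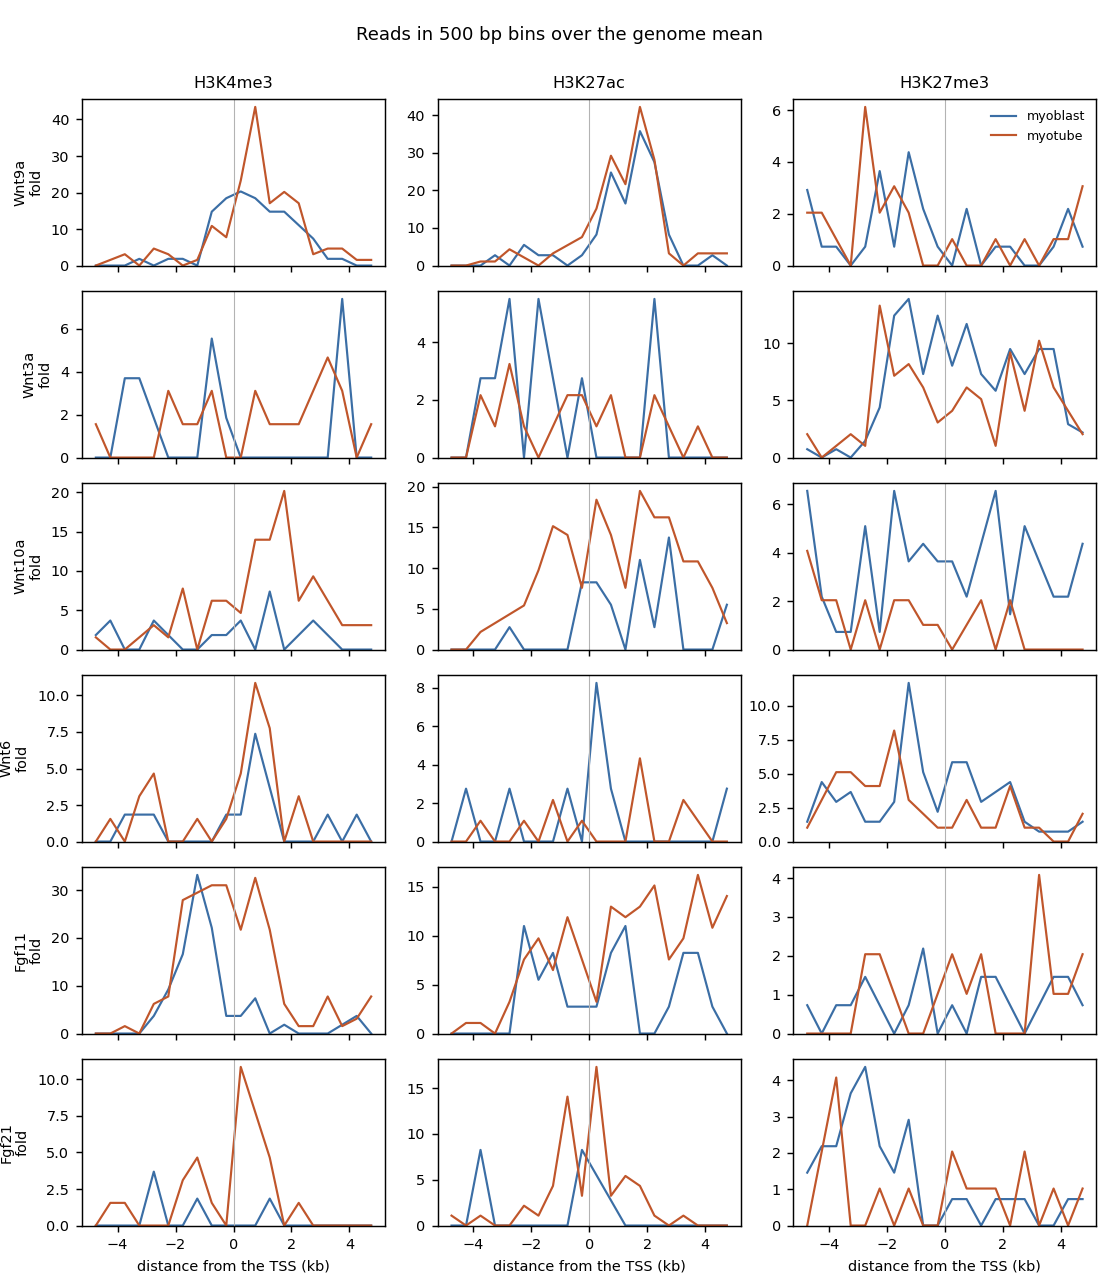
Reads in bins of 500 bp over the genome mean, as fold (y axis, scaled for each panel), against distance from the TSS in the direction of transcription (x axis, kb), for 6 members (rows) and 3 marks (columns) in myoblasts (blue) and myotubes (orange). Single reads make visible steps at this depth. H3K27ac at Wnt10a lies above the myoblast trace over most of the region in myotubes, and H3K27me3 at Wnt3a spans both sides of the TSS in both cell types.

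Another pair of neighbours stood in opposite classes. Wnt3a and Wnt9a start 16176 bp apart on opposite strands of chromosome 11. Wnt3a, the canonical Wnt of the dorsal neural tube and of many culture assays, held 108 H3K27me3 reads in myoblasts (9.84-fold) and 40 in myotubes (5.10-fold), with 4 and 8 H3K4me3 reads. Wnt9a held 15 and 7 H3K27me3 reads. Wnt3 and Wnt9b, 24329 bp apart on the same chromosome, both had H3K27me3 alone in both cell types.

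10 members had H3K27me3 without H3K4me3 in both cell types, against 5.10% of all promoters. These were Wnt3, Wnt3a, Wnt7a, Wnt7b, Wnt8b, Wnt9b, Fgf3, Fgf6, Fgf8 and Bmp3. The highest in myoblasts were Wnt3, at 120 reads (10.9-fold), Wnt3a, and Wnt9b, at 106 reads (9.66-fold). In myotubes Wnt9b led with 42 reads (5.35-fold), followed by Wnt7a with 41 reads (5.23-fold) and Wnt3a. Wnt7a, a Wnt of regenerating muscle, had 51 reads in myoblasts (4.65-fold) and the largest relative ratio of the 21 members compared, 1.5 (0.965 to 2.30). Fgf6, an FGF of developing muscle, had 51 and 28 H3K27me3 reads (4.65-fold and 3.57-fold) and 1 H3K4me3 read in each library.

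For another 10 members H3K27me3 was enriched in myoblasts and under 3-fold in myotubes, with H3K4me3 under 3-fold in both, against 3.13% of all promoters. They were Wnt2, Wnt2b, Wnt5b, Wnt16, Fgf4, Fgf15, Fgf17, Bmp4, Bmp6 and Bmp7. The threshold decides some of these, since Wnt2 was at 3.01-fold and Bmp7 at 3.10-fold in myoblasts, and Fgf23, at 2.92-fold, was left outside. Wnt11 was at 2.92-fold too, but its H3K4me3 was over 3-fold in both cell types. Bmp4, the BMP used most to turn mesenchymal cells to bone, had 51 H3K27me3 reads in myoblasts (4.65-fold) and 13 in myotubes (1.66-fold). Bmp7, a BMP of kidney and bone, had 34 and 10 reads, and the 2 libraries together were under the limit for a comparison.

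H3K27me3 was called lower in myotubes at 4 of the 21 members compared, against 3.74% of the promoters compared in all, and higher at 0, against 1.80%. Beside Wnt10a these were Wnt7b, with 105 and 25 reads and a ratio of 0.456 (0.274 to 0.689), Fgf17, with 69 and 17 reads and 0.478 (0.252 to 0.787), and Bmp4, with 0.5 (0.236 to 0.883). The Bmp4 call held under 4 of 9 other settings and that of Fgf17 under 6. Wnt10a, Fgf17 and Bmp4 were under 3-fold in myotubes and were compared through their myoblast reads. That filter favours lower calls, among all promoters too, so the calls describe the libraries and do not show a change. The fold was lower in myotubes at 23 of the 24 members enriched in myoblasts, and at 1971 of 2260 such promoters in all. Both sets were picked for a high myoblast count, which by itself favours a lower myotube value, so these counts do not show a change. The choice of background moved the number of enriched members. Against the surrounding 100 kb on each side, 12 members were enriched in myoblasts and 1 in myotubes, Wnt7a at 1.26-fold and 1.31-fold among those lost. The share of all promoters on that scale was not counted, so whether the members still lean to H3K27me3 there is not known.

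H3K4me2 was present at many of the promoters with H3K27me3. In myoblasts 14 of the 24 members with H3K27me3 also passed 3-fold for H3K4me2, against 42.1% of all promoters with H3K27me3, and in myotubes 3 of 12, against 19.7%. Fgf15, the mouse intestinal hormone of bile acid control, had the lowest ratio, with 185 reads (27.6-fold) in myoblasts and 15 (2.02-fold) in myotubes, or 0.121 (0.0625 to 0.193). The lincRNA Gm17685 starts within this window, 142 of the 185 reads lay before the Fgf15 TSS, and its part in the counts was not tested. Wnt2b, which supports progenitor cells, had 119 and 23 reads (0.281, 0.166 to 0.427). Both were also lower in H3K4me1, at 0.405 and 0.479. H3K27me3 was under 3-fold in myotubes at both of these genes.

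H3K4me2 was lower in myotubes at 4 of 26 members compared (8.48% of all promoters compared) and higher at 2 (8.12%). The other lower ones were Bmp8a, with 241 and 71 reads (0.418, 0.313 to 0.542), and Wnt1, with 229 and 80 reads (0.495, 0.376 to 0.636), a call lost with 5 reads added and with thinned libraries. With scaling by total reads alone, where the median ratio of enriched promoters was 0.642, 15 were lower and 1 was higher. H3K4me1 was lower at 4 of 21 (9.18%), Bmp6, Fgf11, Fgf15 and Wnt2b, at ratios of 0.405 to 0.479, and higher at 1 (8.36%), Wnt10a. With total reads alone, 7 were lower in H3K4me1 and 8 in H3K27me3. For none of these marks was the share of all promoters counted on that scale, so these numbers say nothing particular to the members.

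H3K4me3 was called at 3 of the 15 members compared. It was higher in myotubes at Wnt10a and Fgf11 (4.84% of all promoters compared) and lower at Fgf10 (4.70%), which had 35 and 17 reads and a ratio of 0.462 (0.236 to 0.823). The transcript Gm16263 starts within the Fgf10 window, as the lincRNAs Gm12541 and AU022754 do in those of Fgf2 and Wnt7b, and their part was not tested. The Fgf10 call was lost with 5 reads added and with thinned libraries. 3 members with H3K4me3 alone in myoblasts had neither mark at 3-fold in myotubes (1.55% of all promoters), Fgf2 at 17 and 13 reads, Fgf7 at 16 and 8 reads and Bmp8a at 22 and 14 reads. Fgf2, the FGF that keeps cultured myoblasts dividing, had an interval of 0.316 to 1.55 around a ratio of 0.719, which leaves its direction undecided.

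H3K27ac had the largest share of members called among the marks with more than 1 member compared. It was higher in myotubes at 5 of the 10 members compared, against 15.0% of all promoters compared, and lower at 1, against 12%. With scaling by total reads alone, 2 of these 5 passed, Wnt10a and Fgf21. The myotube library held 2.54 times the reads of the myoblast one, so it weighs more in the choice of promoters compared. Fgf21 was under 3-fold in myoblasts and entered through its myotube reads. Wnt1, enriched in myoblasts and not in myotubes, fell short of the limit. Bmp2k had 51 and 205 reads (17.5-fold and 27.7-fold) and a ratio of 2.58 (1.92 to 3.63), and it led the members in myotubes. The lower one was Fgf20, at 55 and 31 reads (0.372, 0.229 to 0.580).

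**Figure D4:**
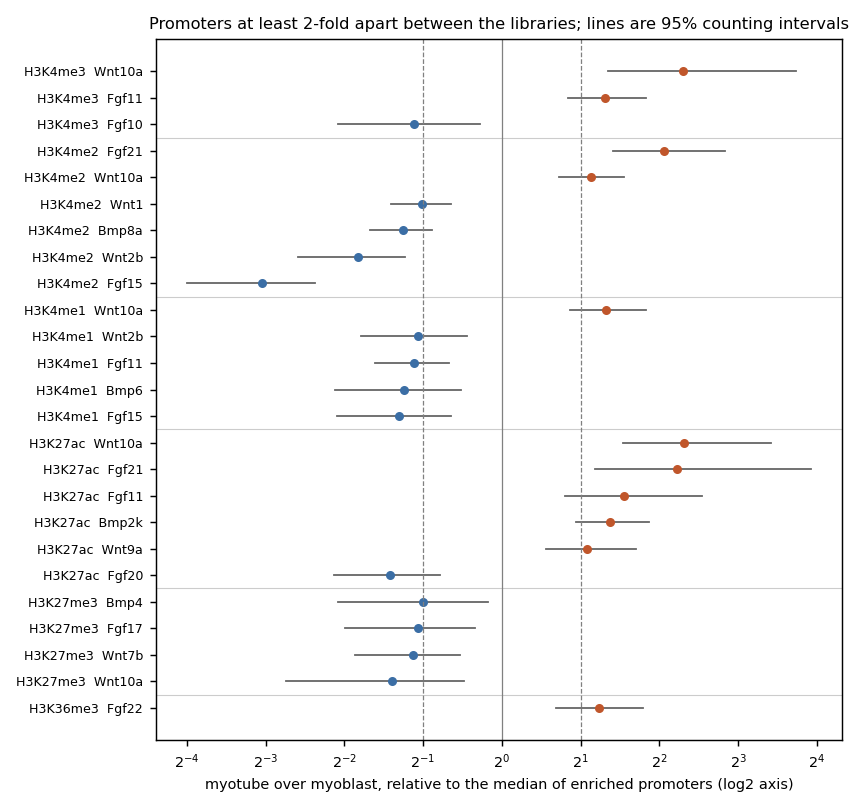
Ratio of the myotube to the myoblast library at each member called for a mark, relative to the median of enriched promoters, on a log2 axis (dots) with 95% counting intervals (lines). Dashed lines mark 2-fold in either direction. Wnt10a and Fgf21 lie highest in H3K27ac, at 4.96 and 4.65, and Fgf15 lies lowest of all, at 0.121 in H3K4me2.

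Fgf21, a hormone of fasting that stressed muscle can also release, had active marks over the genome mean in the myotube libraries. H3K4me3 was at 2 reads in myoblasts (0.461-fold) and 21 in myotubes (4.07-fold), although the 2 libraries together were too low to be compared. H3K27ac was at 6 reads (2.06-fold) and 49 reads (6.63-fold), with a ratio of 4.65 (2.28 to 15.2). H3K4me2 was at 24 and 73 reads, with a ratio of 4.16 (2.66 to 7.10), while H3K4me1 was already at 53 reads (5.23-fold) in myoblasts and at 59 (6.01-fold) in myotubes. H3K27me3 was at 9 and 6 reads, under the genome mean in both. The nearest other TSS, that of Fut1, lies 2116 bp before it, just outside the window. Over that of the surrounding 100 kb on each side, the level of Fgf21 in myotubes was 1.65-fold for H3K4me3, 1.33-fold for H3K27ac and 2.60-fold for H3K4me2, all under 3-fold.

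Fgf11, whose protein acts on ion channels and not as a ligand, had the most H3K4me3 of the 53 in myotubes. The count was 48 reads in myoblasts (11.1-fold) and 130 in myotubes (25.2-fold), with a ratio of 2.47 (1.79 to 3.56). By side of the TSS there were 41 before and 7 after it in myoblasts and 77 and 53 in myotubes. H3K27ac was at 15 and 71 reads (2.93, 1.75 to 5.80). Against the surrounding 100 kb on each side, H3K4me3 was at 2.44-fold and 5.99-fold and H3K27ac at 1.04-fold and 2.32-fold. H3K4me1 was lower, at 145 and 53 reads (0.462, 0.327 to 0.630), and H3K4me2, at 337 and 289 reads, was the highest of the members in both cell types. The window takes in part of Tmem102, which starts 3767 bp before Fgf11, and its part in the counts was not tested.

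The other 3 intracellular members, Fgf12, Fgf13 and Fgf14, carried none of the 6 marks at 3-fold in either cell type, at the TSS used or at their other annotated promoters for H3K4me3, H3K27ac and H3K27me3. Fgf20 needs a caution, since the TSS used lies 280 bp from that of Efha2. At its other annotated TSS, 21378 bp downstream, H3K4me3 was at 0.692-fold and 1.36-fold and H3K27me3 at 5.47-fold in myoblasts and 2.93-fold in myotubes. The acetylation and H3K4me3 given above for Fgf20 are thus those of a shared promoter.

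Wnt4, a Wnt of kidney and gonad, was at the threshold, with 13 H3K4me3 reads in myoblasts, just under 3-fold, and 17 (3.30-fold) in myotubes. It had 131 and 79 H3K4me2 reads (19.5-fold and 10.6-fold) and no H3K27me3 at 3-fold. 15 members had neither H3K4me3 nor H3K27me3 in both cell types (38.1% of all promoters), among them Wnt5a, Bmp2, Fgf1 and Fgf18. Bmp2, the BMP that turns C2C12 cells to the bone lineage in culture, had 9 and 8 H3K4me3 reads and 7 and 6 H3K27me3 reads. Wnt5a, the main non-canonical Wnt, had 7 and 3 H3K4me3 reads and 18 and 8 H3K27me3 reads. None of the 6 marks was enriched at 13 members in myoblasts (24.5%, against 32.3% of all promoters) and 19 in myotubes (35.8%, against 35.9%). The share was near that of all promoters in myotubes and lower in myoblasts. The lowest H3K27me3 in myoblasts among members without H3K4me3 was at Fgf12, at 5 reads in each library.

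H3K36me3 over the transcribed region was counted from 2 kb after the TSS to the end of the gene in 51 members, Fgf21 and Fgf22 being too short. It was enriched at 5 members in myoblasts, against 41.1% of 17988 genes, and at 9 in myotubes, against 40.0%. Bmp1 was the highest, at 11.1-fold (10.5 to 11.7) and 10.4-fold (9.63 to 11.1), and Bmp2k had 3.57-fold and 4.51-fold. The median over the 51 members was 0.622-fold in myoblasts and 0.773-fold in myotubes, and over all genes 1.91-fold and 1.96-fold. Wnt10a had 1.23-fold (0.860 to 1.70) in myoblasts and 5.45-fold (4.43 to 6.64) in myotubes, and Wnt9a had 2.13-fold (1.79 to 2.50) and 5.54-fold (4.85 to 6.30).

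Fgf11 followed the same order, at 2.11-fold (1.32 to 3.20) and 6.10-fold (4.34 to 8.35). So did Wnt4, at 1.38-fold (1.09 to 1.73) and 3.46-fold (2.86 to 4.14), and Wnt11, at 0.724-fold (0.507 to 1.0) and 2.53-fold (1.99 to 3.16). The intervals of the 2 libraries do not meet in these 5 genes. In how many of all genes this holds was not counted, so it is not shown to be particular to them. Wnt10b, with the acetylated promoter in both cell types, had 5.38-fold (4.15 to 6.85) and 4.05-fold (2.73 to 5.78), which overlap. Wnt2b had 3.12-fold and 4.78-fold although its promoter had 0 and 9 H3K4me3 reads. Fgf10 was at 0.675-fold (0.568 to 0.797) and 0.275-fold (0.192 to 0.383). Bmp8b, at 3.22-fold and 4.31-fold, shares 30.2% of its region with other genes.

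**Figure D5:**
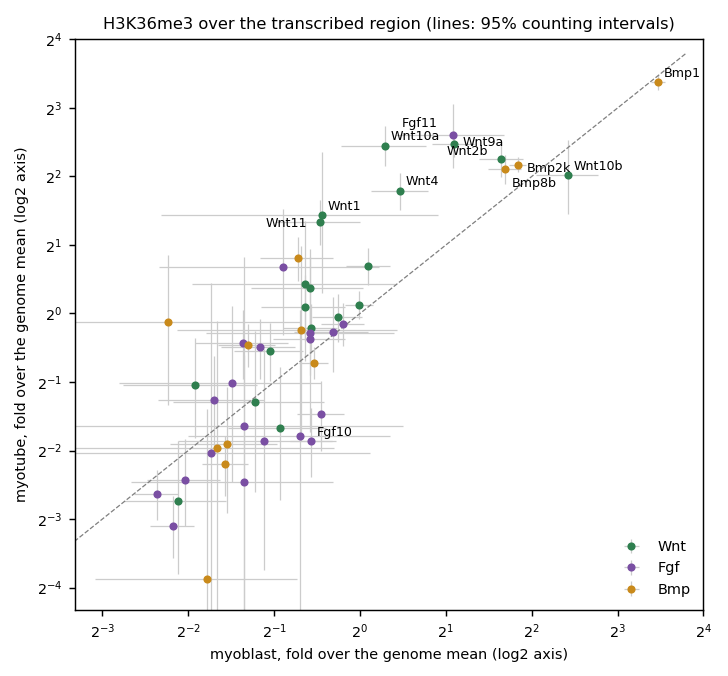
H3K36me3 reads per base over the transcribed region relative to the genome mean in myoblasts (x axis) and myotubes (y axis) for 51 members, on log2 axes, with 95% counting intervals as lines, some of which run past the axes. The dashed line marks equal values. Wnt10a, Wnt9a, Fgf11, Wnt4, Wnt1 and Wnt11 lie above it and Fgf10 below it, the intervals of Wnt1 alone among these overlapping between the libraries.

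At the promoter, H3K36me3 could be compared in Fgf22 alone, a short gene expressed mainly in skin and brain. It had 50 reads in myoblasts (4.55-fold) and 68 in myotubes (10.1-fold), a ratio of 2.34 (1.61 to 3.46), where 6.44% of all promoters compared were higher and 10.2% lower. H3K4me3 was at 3 reads in both cell types there, and the nearest other TSS, that of Polrmt, lies 8495 bp before it. H3K36me3 at Fgf22 was 0.820-fold and 1.32-fold against the surrounding 100 kb on each side, so that it was not enriched over its neighbourhood.

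CAGCTG was found in the 300 bases of 11 members, or 20.8%, against 15.2% of all promoters of the same length. All 5 members with H3K27ac called higher were among them, and 1 of the 4 compared and not called, as was Fgf20. Over all promoters compared for H3K27ac, the E-box stood in 19.8% of those called higher, 15.0% of those called lower and 13.7% of the rest. GCTCG, searched on both strands like the other motifs, stood in 30 members, or 56.6%, against 35.9% of all promoters. Among promoters compared for H3K27ac it stood in 52.3% of all and in 6 of the 10 members. Fgf11 had no GCTCG in these 300 bases. The paper lists this gene with a conserved ZBED6 site and higher RNA after Zbed6 was silenced. That site lies downstream of the bases searched here, so the search could not have found it. CTTTGA, the core of a TCF site, stood in 5 members (9.43% against 14.5%), and TGACGTCA, the cAMP response element, in 0 (2.27% of all promoters). CAGCTG reads the same on both strands. These are descriptions of few genes, with no test, and a letter match is not a bound site. GC content over 1 kb was 62.0% at the median member and 55.1% at the median promoter. For CpG-rich promoters, with at least 50% GC and a CpG ratio of at least 0.6, the numbers were 31 of the 53 against 45.4% of all promoters, and 15 of the 24 with H3K27me3 in myoblasts against 40.8% of all such promoters.

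The genes around the ligands in their pathways, from lists of receptors, secreted inhibitors and targets, were taken the same way. H3K4me3, enriched at 50.4% and 50.6% of all promoters in myoblasts and myotubes, was enriched at 13 and 13 of 15 Wnt receptors, at 4 and 5 of 5 FGF receptor genes and at 5 and 5 of 6 BMP receptors. The counts were 8 and 9 for 21 secreted inhibitors and 14 and 16 for 19 pathway targets. H3K27me3, at 10.1% and 7.03% of all promoters, was enriched at 1 and 1 Wnt receptors (Ror2), and at 7 and 4 of the secreted inhibitors, among them Dkk1 and Sfrp5. The counts were 1 and 0 for the FGF receptor genes, 1 and 0 for the BMP receptors and 3 and 3 for the pathway targets.

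Of the receptors compared for H3K4me3, 2 were called higher and 0 lower in myotubes, where 4.84% and 4.70% of all promoters compared were. Fgfr3, an FGF receptor of cartilage, had 12 and 97 H3K4me3 reads, 7 and 352 H3K27ac reads and 50 and 12 H3K27me3 reads, with ratios of 6.97 (4.09 to 15.0), 28.7 (15.7 to 82.1) and 0.473 (0.216 to 0.849). Fgfrl1, a receptor without a kinase, had 30 and 70 H3K4me3 reads (2.12, 1.39 to 3.43). For the secreted inhibitors, 2 of 10 compared were higher and 3 lower in H3K4me3, against the same 4.84% and 4.70%. Fst, which binds activin and myostatin, had 55 and 215 reads (3.57, 2.68 to 4.95), and Chrd, the BMP antagonist chordin, had 12 and 60 (4.34, 2.46 to 9.44). Grem1, the BMP antagonist gremlin, had 54 and 15 (0.269, 0.135 to 0.462), Fstl1 82 and 24 (0.278, 0.164 to 0.431) and Dkk2, a Wnt inhibitor, 42 and 19 (0.430, 0.230 to 0.735).

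Among 15 pathway targets compared, H3K4me3 was higher at 2 and lower at 2, against 4.84% and 4.70% of all promoters. Id1 and Id3, BMP targets that block myogenic bHLH factors, had 249 and 123 reads (0.459, 0.365 to 0.569) and 216 and 60 reads (0.260, 0.190 to 0.343). Spry1, a feedback inhibitor of FGF signals, had 42 and 132 reads (2.86, 2.04 to 4.22), and Tcf7, a nuclear partner of beta-catenin, had 28 and 65 (2.10, 1.36 to 3.47). H3K27ac was higher at 4 of the 15 compared, Axin2 (3.09, 1.52 to 9.15) among them, and lower at 5, against 15.0% and 12% of all promoters compared. Notum, which cuts the lipid from Wnt proteins, was the 1 target called lower in H3K27me3 (3.74% of all promoters compared), with 112 and 25 reads (0.427, 0.257 to 0.644).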

How the data were processed

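The 12 libraries came from immunoprecipitated chromatin of about 250 bp, amplified in 15 PCR cycles. The authors aligned reads of 34 bp to mm9 with Mosaik and deposited the uniquely aligned ones as intervals, from which counts were made here. They also deposited MACS peaks with a score for each, all of at least 50, and the settings are not given in the sources used here. The peaks entered as an alternative alone.

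Reads were extended to 150 bp, and their midpoints were counted within 2000 bp of 1 TSS per gene from GENCODE M1 protein-coding transcripts, the TSS with the most H3K4me3 in both libraries together. Fold is relative to the genome mean of chromosomes 1 to 19 and X. Intervals are exact Poisson for levels and exact conditional binomial for ratios, at 95%, and reads without molecular identifiers are not independent molecules. With 1 library per mark and cell type no test of conditions was made. The counting was tested on simulated data. Genes were named by class, by being called, by neighbour and by rank in a mark, and those of the receptor, inhibitor and target lists by being called or by H3K27me3. The members and the gene lists were chosen with earlier results of these data known, and a few genes near a threshold were named after their values were seen. Alternatives were the window, the TSS, duplicate reads, extension, thresholds, scaling, reads added, local background (100 kb on each side) and the deposited peaks. Scripts ran in Python 3.11.15 with scipy 1.17.1 for intervals, matplotlib 3.10.9 for figures, and pandas 2.3.3 and numpy 2.4.6 for the tables.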

Additional observations from a re-analysis of the deposited data

How the results depend on the processing

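Of the counts of enriched members, 106 stayed within 1.5 times of the value given and 26 did not, over all other settings. For classes these were 45 and 11, and for calls 80 and 28. Thinning to the smallest library, and asking that the interval leave out 1, were chosen after seeing the data, and the latter kept all calls. The cause of the moves was not tested, except where a threshold itself sets the count. Shares over all promoters were not counted under the other settings, so the counts below describe the members alone. No paired analysis was possible because each mark has 1 library per cell type.

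With 1 kb either side of the TSS, H3K36me3 was enriched at 0 members in myoblasts and 2 in myotubes, both marks stood at 8 in myoblasts, H3K4me2 was higher at 1, H3K4me1 higher at 2 and lower at 8, and H3K27me3 lower at 7. With the most upstream TSS, both marks stood at 1 in myotubes. With 1 read per position and strand, H3K27me3 was lower at 2. With 5 reads added, H3K27me3 was lower at 2 and H3K4me3 at 0. Without extension, H3K36me3 was enriched at 1 in myoblasts. In thinned libraries, H3K36me3 was enriched at 2 in myotubes, both marks stood at 5 in myoblasts and H3K4me3 was lower at 0.

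With enrichment at 2-fold, the counts were 22 for H3K4me3 and 18 for H3K27ac in myoblasts, and 25 for H3K4me1, 25 for H3K27me3 and 5 for H3K36me3 in myotubes, with both marks at 11 and 10 and neither at 10 and 17 in myoblasts and myotubes. At 5-fold, H3K27me3 was enriched at 14 and 3 and H3K4me1 at 15 and 6, H3K36me3 at 0 in myoblasts, both marks stood at 0 in myotubes, H3K27me3 alone at 12 and 3, and neither at 29 in myoblasts. Against the local background, H3K27me3 was enriched at 12 and 1, H3K36me3 at 0 and 3, and in myotubes H3K4me3 at 9 and H3K4me1 at 8. By the deposited peaks, H3K27ac was enriched at 18, H3K27me3 at 7 and H3K36me3 at 1 in myoblasts and H3K4me1 at 6 in myotubes. With the 2 lists exchanged, H3K27ac stood at 7, H3K27me3 at 18, H3K36me3 at 1 and H3K4me1 at 6.

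With total reads alone, H3K27ac was higher at 2, H3K4me2 higher at 1 and lower at 15, H3K4me1 lower at 7 and H3K27me3 lower at 8. At 1.5-fold, H3K27me3 was higher at 1 and lower at 8, H3K4me1 and H3K4me2 were lower at 9 each and H3K4me3 at 3. At 3-fold, H3K27ac was higher at 2 and lower at 0, H3K4me3 higher at 1 and lower at 0, H3K4me2 higher at 1 and lower at 2, H3K4me1 higher at 0 and lower at 0, H3K27me3 lower at 0 and H3K36me3 higher at 0.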
